A study of Arabidopsis thaliana with 8 samples.

Results

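The regions described here are those at which ENAP1 was recovered from dark-grown Arabidopsis thaliana seedlings kept in air, ChIP against input. All 4526 regions of the deposited air list were used, and each was assigned to the protein-coding gene whose nearer end lay closest to its summit. With the 3293 regions of the ethylene list they make up the 7819 regions of the series. The air ChIP group holds 2 libraries made with an antibody against green fluorescent protein, and the air input group holds 2 libraries made from the same kind of material without it. All seedlings were of ecotype Col-0, carried the ein3 eil1 double mutation and were raised in darkness at 24 °C for 3 days before a stay of 4 h in hydrocarbon-free air. The labels name neither a promoter nor a line for the tagged ENAP1.

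ENAP1 is a nuclear protein that associates with histones and with EIN2, the membrane protein that carries the ethylene signal from the endoplasmic reticulum to the nucleus. EIN3 and EIL1 are the transcription factors at the end of that pathway, and these seedlings lacked both. In air, without added ethylene, the receptors keep the pathway off, so the list describes where ENAP1 lay before a treatment and without those factors. ChIP of whole seedlings mixes all cell types, so a region held in few cells cannot be told apart from one weakly held in many.

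The authors' peak caller turned both ChIP libraries and both inputs into 1 joint list. It holds no value per library, so no region has a replicate error, and no difference was tested between samples. Whether the libraries of a group stem from separate seedling batches is not stated in the labels. Each region carries a fold enrichment, which is the ChIP pile-up at the summit over the local background, with 1 added to both. Together with the deposited −log10 p this fixes the pile-up, the number of ChIP fragments over the summit, as a whole number in every air region, and with it the background that the caller derived from the inputs.

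ENAP1 regions were short, and at most of them the ChIP pile-up stood a few-fold over input. The ChIP pile-up ran from 23 to 233 with a median of 48 (interquartile range 36 to 67), against a local background of 3.94 to 117 with a median of 8.13 (5.74 to 11.5). Fold enrichment had a median of 5.06 and a highest value of 22.4, and the −log10 q of the authors' deposited table ran from 8.34 to 154. The lowest background was shared by 258 regions, or 5.70%. At 206 regions the background was at least 5 times that lowest value. In the quartile of regions with the highest fold enrichment the median pile-up was 68 over a median background of 6.70, and in the quartile with the lowest it was 47 over 12.3.

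**Figure D1:**
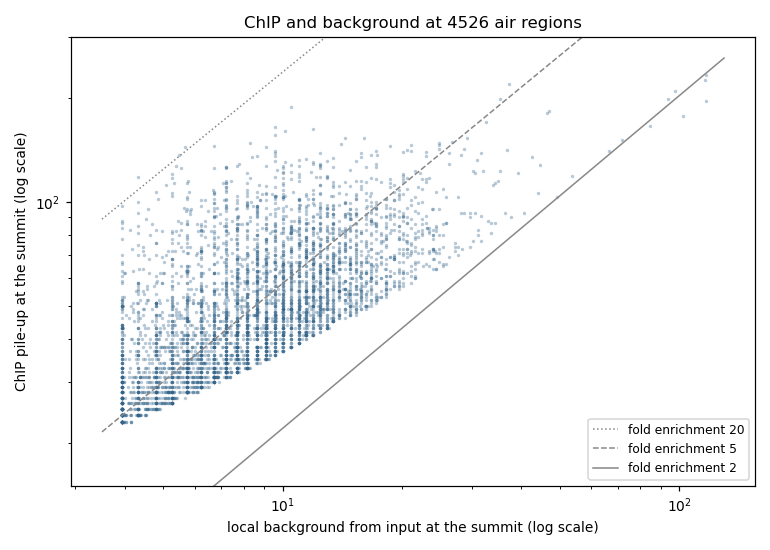
Each of the 4526 points is an air region, with its ChIP pile-up at the summit (vertical) against the local background derived from the inputs (horizontal), both on log scales. Lines mark fold enrichments of 20, 5 and 2. Points start at a background of 3.94, and the few with a background near 117 lie along or below the line for a fold of 2.

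The 20 regions with the highest fold enrichment stood on a low background, between 3.94 and 6.70, and had ChIP pile-ups of 84 to 145. GATB (AT1G48520), a subunit of the organellar amidotransferase that completes glutaminyl-tRNA, had a ChIP pile-up of 118 (95% Poisson interval 97.7 to 141, counting error only), against a background of 4.31. Its region lies at chr1:17939887-17940207 (TAIR10), and its summit lay 21 bp inside the gene. STL2P (AT2G01470), a relative of the SEC12 exchange factor that starts the budding of vesicles from the endoplasmic reticulum, had a pile-up of 137 against a background of 5.49, with the summit 132 bp outside the gene. SCI1 (AT1G79200), named after a cell-cycle inhibitor of stigma and style, had 127 against 5.39, and its summit also lay 95 bp from an end of AT1G79190. The regions were picked by fold enrichment, so pile-ups well above the background follow from that choice.

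Other genes of that set have various functions. UBP6, a ubiquitin-specific protease, had a ChIP pile-up of 120 against a background of 5.26, with the summit 172 bp inside the gene. PHB2, a prohibitin of the inner mitochondrial membrane, had 117 against 5.25, and BCA6, a beta carbonic anhydrase, had 88 against 3.94. Their fold enrichments were 19.3, 18.9 and 18.0. The region at RALFL22, a RALF-like signalling peptide, had the highest pile-up of the set, 145 against 6.70, with its summit 451 bp outside the gene. A neighbouring region was assigned to RAD9, a subunit of the checkpoint clamp at damaged DNA, with a summit 714 bp outside that gene and 1109 bp from RALFL22. AT5G02220, for which the gene table gives the name SIAMESE-RELATED 4, a family of inhibitors of cyclin-dependent kinases, had a summit 865 bp outside. FRS2, a member of the transposase-derived FAR1 family, had one 935 bp outside. APD1 had 97 against 3.94, with its summit 30 bp inside. The remaining regions lay at genes that the table lists by number only, namely AT3G06660, AT2G26730, AT1G57600, AT3G58130, AT1G19430, AT5G38220, AT1G21920, AT2G22426 and AT5G67170. Of the 20 summits, 13 were within 200 bp of a gene end and 10 were inside a gene. All 20 regions overlapped a region of the ethylene list, which comes from other libraries.

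**Figure D2:**
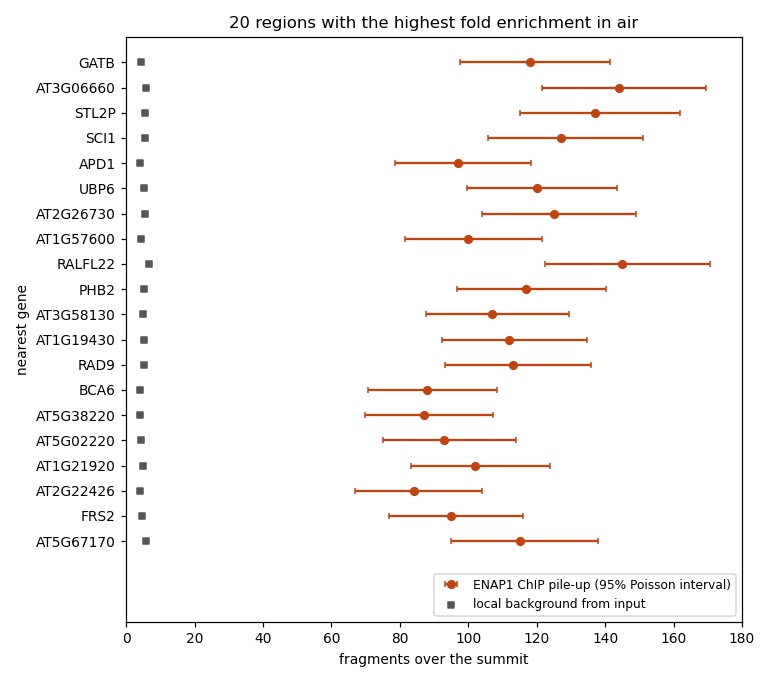
The 20 air regions with the highest fold enrichment, named by the nearest gene, with the ChIP pile-up at the summit (circles, bars are 95% Poisson intervals that cover counting error only) and the local background derived from the inputs (squares), in fragments. Pile-ups of 84 to 145 stand against backgrounds of 3.94 to 6.70. No interval reaches its background, which follows from the choice of regions by fold enrichment.

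At the other end of the list the background was high. The 5 regions with the lowest fold enrichment, 1.67 to 1.99, had ChIP pile-ups of 166 to 233 against backgrounds of 84.7 to 117. CAS1, the cycloartenol synthase of sterol synthesis, was the nearest gene of one of them, at 7818 bp, and AT3G32980 was nearest to a pair of them, at 7065 and 8218 bp. The others lay nearer to a gene, 362 bp inside AT2G07565 and 274 bp outside AT2G01023. None of the 5 overlapped an ethylene region, and none had its summit within 200 bp of a gene end.

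ENAP1 lay just inside the ends of genes. Of all summits, 2263, or 50.0% (95% exact interval 48.5 to 51.5), were 0 to 200 bp inside the nearest end of a protein-coding gene, and 687, or 15.2%, were 1 to 200 bp outside it. The densest 50 bp stretch began 50 bp inside and held 747 summits, against 319 in the last 50 bp outside the gene. The median summit was 74 bp inside (interquartile range 16 bp outside to 177 bp inside). Only 310 summits, or 6.85%, were deeper than 500 bp inside, and 354, or 7.82%, were more than 500 bp outside. The gene table gives no strand, so starts of transcription cannot be told apart from its ends. When summits were shifted by 200 bp along the chromosome, 19.6% or 19.05% fell 0 to 200 bp inside, depending on the direction.

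**Figure D3:**
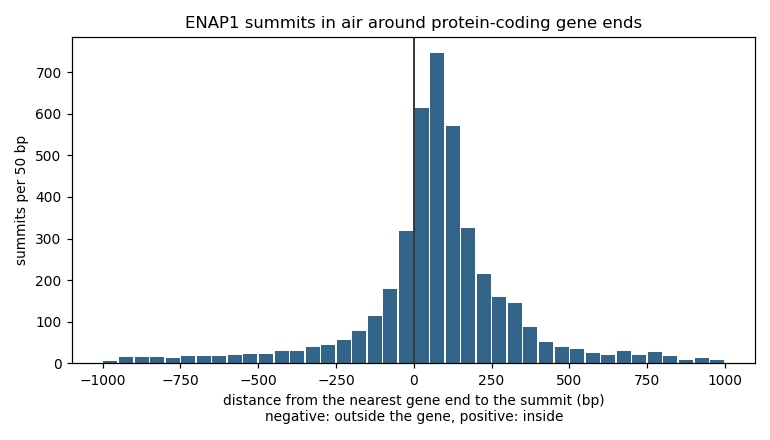
Number of air summits per 50 bp by distance from the nearest end of a protein-coding gene, negative outside and positive inside. The tallest bar, 747 summits, begins 50 bp inside the gene, and counts are lower on the outer side than on the inner side of the end.

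Position varied with enrichment. From the lowest to the highest quartile by fold enrichment, the share of summits 0 to 200 bp inside an end was 45.8%, 47.2%, 50.9% and 56.1%. The share deeper than 500 bp inside was 12.2%, 5.70%, 5.08% and 4.42%. Regions also widened, with median widths of 199, 201, 225 and 266 bp. The share that overlapped an ethylene region was 26.1%, 44.6%, 70.0% and 94.5%. The overlap given for gene groups below is therefore to be read beside their fold enrichment. The widest regions did not all follow the ends of genes. The widest, 1279 bp, lay at AT4G18670 with its summit 1628 bp inside, and GATA1, a zinc-finger transcription factor, had a 945 bp region with its summit 591 bp inside. The other 3 of the 5 widest lay at AT4G38930, AT3G54363 and PPR2, a pentatricopeptide repeat protein.

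At least 1 summit was assigned to 4204 of 27444 protein-coding genes, or 15.3%. Among the 10374 genes that the table gives a symbol of their own it was 17.9%, and among the 17070 others 13.7%. Gene families are read below against 17.9%, the higher of these shares. Synonyms also placed genes in them, so some members, such as AT5G23280 and AT3G11100, have no symbol of their own. Carriers were longer, with a median of 2491.5 bp for genes with a summit and 1991 bp for genes without. From the shortest to the longest quartile of genes, 6.77%, 14.5%, 18.99% and 21.1% had a summit. By chromosome the share lay between 14.6% on chromosome 4 and 16.1% on chromosome 5. Of all summits, 1429, or 31.6%, also lay within 500 bp of an end of another protein-coding gene, so the gene named is the nearest and may not be the one concerned.

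Across 73 gene families and functions, which hold 3281 genes, 487 genes, or 14.8%, had a summit. In 31 of the groups the share was above 17.9%, and in 42 it was at or below. The exact interval of the share lay wholly above 17.9% in 4 groups and wholly below it in 11. Intervals cover counting error only, members of a family share sequence and neighbourhood, and no test between groups was made. Members were also chosen with earlier results of these data known, so these counts of groups are a description only. A group holds the genes that a symbol or synonym placed in it, so it can lack members of its family. Its share is that of the genes placed. By broad role, the 14 ethylene signalling genes are left aside here and described further on. The highest shares began with membrane trafficking and organelle genes, with 43 of 186 (23.1%, 17.3 to 29.8). RNA and transcription machinery followed with 80 of 351 (22.8%, 18.5 to 27.5) and chromatin genes with 27 of 123 (22.0%, 14.99 to 30.3). Of these roles, only RNA and transcription machinery had an interval wholly above 17.9%. The median length of the chromatin genes was 3491 bp, and 21.1% of all genes over 3030 bp had a summit. Genes of metabolism and transport had 74 of 734 (10.1%), and those of cell growth and the wall 28 of 288 (9.72%). Transcription factors had 132 of 836 (15.8%), protein synthesis and turnover 48 of 290 (16.6%) and signalling 50 of 354 (14.1%). A wider rule counted every gene with a summit from 1000 bp outside to 500 bp inside either end. It gave 21% of all genes and 23.4% of genes with a symbol. For the groups described below, it is named where it moved the ratio to genes with a symbol by more than 1.5 times. Some other groups that it moved as far, such as heat shock proteins and heat shock factors, are not described.

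**Figure D4:**
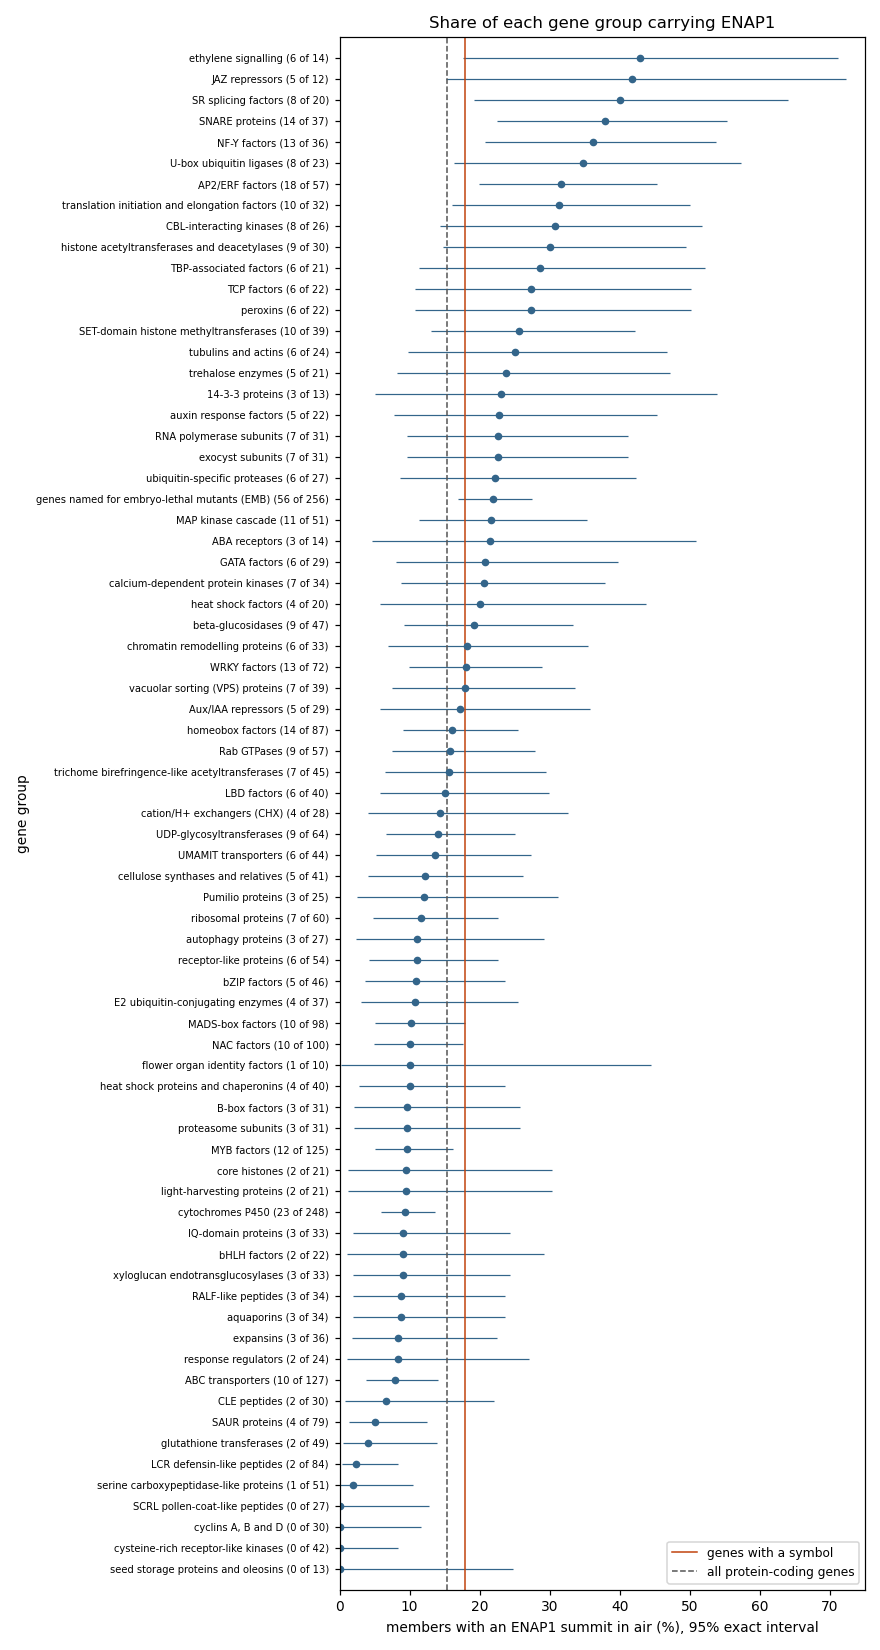
Share of the members of each of 73 gene groups to which an air summit was assigned, in percent, with exact 95% intervals; the numbers of carriers and members stand beside each name. The solid line marks 17.9%, the share of genes with a symbol, and the dashed line 15.3%, that of all protein-coding genes. The intervals of the SR, SNARE, NF-Y and AP2/ERF groups lie wholly right of the solid line. Intervals cover counting error only, and members were chosen with earlier results of these data known.

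ENAP1 was recovered at many genes of membrane fusion. SNARE proteins, which pull a vesicle and its target membrane together, carried a summit in 14 of 37 members, or 37.8% (22.5 to 55.2). SYP23, a syntaxin, had a ChIP pile-up of 72 against a background of 6.22, with its summit 33 bp inside the gene. SYP132, the syntaxin of the plasma membrane needed in cytokinesis and defence, had 108 against 10.0, 38 bp inside. SYP61 and SYP71 followed with fold enrichments of 6.84 and 6.23. Of the 14 regions, 10 overlapped an ethylene region.

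The machinery that ties vesicles to their targets showed single members with high enrichment and shares nearer the background. Exocyst subunits, which tether secretory vesicles to the plasma membrane, carried a summit in 7 of 31 members (22.6%), with a median fold of 8.62, against 5.15 over all genes with a summit. EXO70D3, EXO70F1, EXO70G2 and EXO70D2 led with folds of 11.9, 11.4, 10.8 and 8.62. Rab GTPases, which mark membrane identity, had 9 of 57 (15.8%). RABC2A among them reached a fold of 16.8, with a pile-up of 104 against 5.26 and its summit 458 bp outside. Vacuolar sorting proteins had 7 of 39 (17.9%), led by VPS15 and ATVPS33 at 11.5 and 11.0. Of the regions at trafficking and organelle genes, 71.7% overlapped an ethylene region, against 58.7% of all air regions. The median fold of these carriers was 5.59, against 5.15, and the part of enrichment in the overlap was not tested.

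Genes of RNA processing and translation were also among those with many carriers. SR proteins, which choose splice sites in pre-mRNA, had a summit in 8 of 20 members, or 40.0% (19.1 to 63.9). RSZ21 had a ChIP pile-up of 56 against a background of 5.87, 209 bp inside the gene, and SR34a had 47 against 5.26, 121 bp inside. SR34b and RS2Z32 had folds of 6.98 and 5.11, and the RS2Z32 summit also lay 55 bp from an end of ABCG20. Translation initiation and elongation factors had 10 of 32 (31.3%, 16.1 to 50.0). EIF3E, a subunit of the initiation complex eIF3, was far above the other 9 with a pile-up of 148 against 8.29, a fold of 16.0. Its summit lay 9 bp inside the gene and 160 bp from an end of INO80, the gene of a chromatin remodeller. The next, eIF6A, EIF4B2 and TIF3H1, had folds of 7.29, 6.25 and 6.24. Ribosomal proteins themselves had 7 of 60 (11.7%).

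General transcription genes and those named for embryo-lethal mutants lay closer to the background. TBP-associated factors, which belong to the complex that places RNA polymerase II, had 6 of 21 (28.6%, 11.3 to 52.2), led by TAFII15 at a fold of 7.28. RNA polymerase subunits had 7 of 31 (22.6%), with NRPD2B at 8.50 and NRPB1, the largest subunit of RNA polymerase II, at 5.46. Only 1 of these 7 regions overlapped an ethylene region. The NRPD2B summit lay 49 bp outside that gene and 51 bp from MYB4R1. The EMB genes, essential genes of many functions, had 56 of 256 (21.9%, 16.97 to 27.4), and EMB2786 was the highest of them at 12.5. Their median length was 3110.5 bp, and 21.1% of all genes over 3030 bp had a summit.

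Several transcription factor families carried ENAP1 often, while others did so seldom. NF-Y factors, subunits of a trimer related to histones that binds CCAAT boxes, had 13 of 36 (36.1%, 20.8 to 53.8). The median fold of these carriers was 4.71, below the 5.15 over all genes with a summit. Of their 15 regions, 6 (40%) overlapped an ethylene region, against 58.7% of all air regions. NF-YC11 led with a ChIP pile-up of 58 against a background of 7.02, 82 bp inside, and NF-YB8, NF-YB10 and NF-YA4 had folds of 6.10, 5.76 and 5.52. AP2/ERF factors, the family that holds the ethylene response factors, had 18 of 57 (31.6%, 19.9 to 45.2). Carriers among them had a median fold of 4.65, and 11 of their 22 regions (50%) overlapped an ethylene region. RAP2.7, a flowering repressor, had 101 against 8.76, 164 bp inside. CRF2, a cytokinin response factor, had 55 against 4.44 with its summit 2953 bp outside, and ERF104 had 89 against 10.0, 375 bp inside. TCP factors had 6 of 22 (27.3%), with AT5G23280 at a fold of 15.7 and the other 5 between 4.70 and 5.32. WRKY factors had 13 of 72 (18.1%), led by WRKY48 at 16.0 with 78 against the lowest background of 3.94.

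The transcription factor groups with the most members here had lower shares, to different degrees. Some smaller groups also had low shares, such as bZIP factors with 5 of 46 (10.9%) and bHLH factors with 2 of 22 (9.09%). Homeobox factors had 14 of 87 (16.1%, 9.09 to 25.5), led by HDG11 at a fold of 9.56. MYB factors had 12 of 125 (9.60%, 5.06 to 16.2), NAC factors 10 of 100 (10.0%, 4.90 to 17.6) and MADS-box factors 10 of 98 (10.2%). Their carriers had median folds of 5.41, 5.59 and 6.66, against 5.16 over genes with a symbol. NAC083 had the highest fold of the NAC family at 13.8, with 67 against 3.94, and RD26, a factor of drought and abscisic acid responses, had 9.55. MYB112 led the MYB family at 8.99, with its summit 1397 bp outside the gene.

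**Figure D5:**
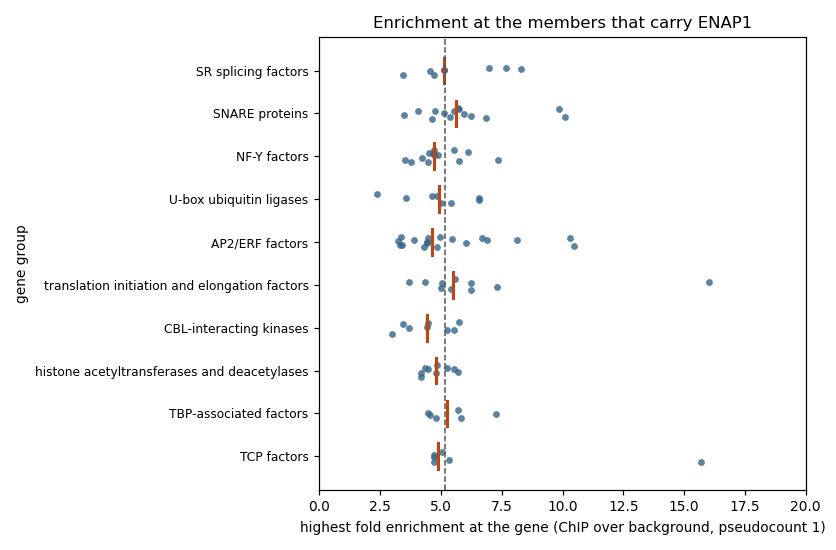
Highest fold enrichment at each member that carries a summit, for the 10 groups of at least 20 members with the highest share of carriers. Each point is a gene, the red bar is the group's median and the dashed line is the median over all genes with a summit, 5.15; most groups lie around that line, with EIF3E at 16.0 and AT5G23280 at 15.7 far to the right.

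Summits were more often spread over several positions at transcription factor genes. More than 1 summit was assigned to 29 of 132 carriers among them, or 22.0%, against 287 of 4204, or 6.83%, over all carriers. Of their 172 regions, 18.0% lay more than 500 bp outside the gene, against 7.82% of all regions. The space between genes is also wider there: the stretches on both sides of a transcription factor gene added to a median of 3898 bp, against 1855.5 bp for all genes, and its part in these counts was not tested. ERF4, a repressor of the ERF family, had 4 summits over 2923 bp, from 42 bp inside the gene to 1706 bp outside, with folds of 3.90 to 6.68. LBD38, a regulator of nitrogen responses, had 4 over 2497 bp with folds of 3.73 to 6.48, and 3 of them overlapped an ethylene region. LRX3, an extensin-like protein of the cell wall, GT18, a glycosyltransferase, and AT3G61028 also had 4 summits each. At LRX3 and GT18 none overlapped an ethylene region.

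Chromatin genes as a whole carried ENAP1 at 22.0% (14.99 to 30.3), an interval that includes 17.9%, and had a median length of 3491 bp. The enzymes of histone acetylation carried it at 9 of 30, or 30.0% (14.7 to 49.4). The genes of these enzymes had a median length of 3102.5 bp, and 21.1% of all genes over 3030 bp had a summit. HAM2, a MYST acetyltransferase, had a ChIP pile-up of 84 against a background of 13.9, 64 bp inside, and its paralog HAM1 had 98 against 21.1, 170 bp inside. HAC5, of the p300 type, had 43 against 6.96, and HAG2 had 41 against 7.65, 20 bp inside. HAG1, also known as GCN5, had a fold of 4.35. HAF01, a relative of TAF1, had 142 against 28.7 with its highest summit 262 bp outside. The deacetylases HDA2, HDA08 and HDA15 had folds of 5.26, 4.17 and 4.17. All 9 lay between 4.17 and 5.71, around or below the median of 5.15 over all carriers. The regions of HAM1 and HAF01 are among those at 5 or more times the lowest background. Without such regions the group's ratio to genes with a symbol was 1.34, against 1.67.

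Histone methyltransferases of the SET-domain group had a summit in 10 of 39 genes (25.6%, 13.0 to 42.1), with folds of 3.28 to 13.0. Their median length was 3421 bp, and the interval includes the 21.1% of all genes over 3030 bp. SDG29 had a ChIP pile-up of 63 against 3.94, a fold of 13.0, with its summit 33 bp outside the gene. ASHH4 had 125 against 10.0, 166 bp outside, and SDG2, a methyltransferase of lysine 4 of histone H3, had 62 against 7.65, 39 bp inside. ATXR2 followed at 6.75. Chromatin remodelling proteins had 6 of 33 (18.2%), led by CHR5 at 6.19. Core histones themselves had 2 of 21 (9.52%), the H2A genes HTA12 and HTA9. That low share depended on the nearest-end rule, since with the wider rule it was 28.6%, against 23.4% of genes with a symbol.

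Ethylene signalling genes had a summit in 6 of 14, or 42.9% (17.7 to 71.1), an interval that includes 17.9%. Their median length was 3214 bp, and the interval also includes the 21.1% of all genes over 3030 bp. The signalling genes were in view when the list was drawn up. EIN2 had the highest pile-up of them, 162 against a background of 12.0, with the summit 250 bp outside the gene and 320 bp from IDH-V. The receptor ETR2 had 65 against 5.74, 111 bp inside, the receptor ETR1 53 against 5.25, 59 bp inside, and the receptor EIN4 36 against 6.13, 151 bp inside. XRN4, the exoribonuclease also known as EIN5, had 49 against 4.67, 18 bp outside. AT3G11100, the gene of ENAP1 itself, had 148 against 24.9, 443 bp inside. That background is the highest of the 6. If the tagged ENAP1 came from an added gene copy, its fragments cannot be told apart from those of this gene, so the value is uncertain. Without regions at 5 or more times the lowest background, which leaves this one out, the group's ratio to genes with a symbol was 2.05, against 2.39. All 6 regions overlapped an ethylene region.

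Signalling groups, with a joint share of 14.1%, ranged widely, and U-box ligases and auxin response factors are given beside them. JAZ repressors, which hold jasmonate responses off, had 5 of 12 (41.7%, 15.2 to 72.3), namely TIFY10B at a fold of 7.32, JAZ1 at 5.50, TIFY7 at 5.10, JAZ6 at 4.99 and JAZ12 at 4.27. With the wider rule the JAZ share was 33.3%, against 23.4% of genes with a symbol. U-box ubiquitin ligases had 8 of 23 (34.8%, 16.4 to 57.3). PUB49 had 141 against 20.6 and PUB8 had 44 against 5.84, both at a fold of 6.58, but only 2 of the 9 regions of the group overlapped an ethylene region. CBL-interacting kinases, which act on calcium signals in salt and nutrient responses, had 8 of 26 (30.8%), led by CIPK5, SIP4, CIPK1 and SOS2 at 5.73, 5.54, 5.26 and 4.45. This depended on the nearest-end rule: with the wider rule the kinases had 19.2%, below the 23.4% of genes with a symbol. The MAP kinase cascade had 11 of 51 (21.6%) and calcium-dependent protein kinases 7 of 34 (20.6%). Shares were lower in receptor-like proteins with 6 of 54 (11.1%), IQ-domain proteins with 3 of 33 (9.09%), RALF-like peptides with 3 of 34 (8.82%), response regulators with 2 of 24 (8.33%) and CLE peptides with 2 of 30 (6.67%, and 13.3% with the wider rule). Auxin response factors had 5 of 22 (22.7%, and 18.2% with the wider rule), with ARF6 at 7.78 and ARF8 at 7.23. ARF21 was listed at 9.90, but its summit lay 1740 bp outside a gene that has close copies, so its value is uncertain.

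Among structural genes, actins and tubulins had 6 of 24 (25%). ACT8 had a ChIP pile-up of 80 against a background of 4.63, a fold of 14.4, and ACT2 had 63 against 5.74, a fold of 9.49. The summits lay 142 and 215 bp inside these genes, which are close copies of each other, so reads may have been split between them. TUA3 and ACT1 had folds of 5.90 and 4.95.

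Enzyme and transporter families mostly had shares below 17.9%. Trehalose enzymes had 5 of 21 (23.8%, but 9.52% with the wider rule). Beta-glucosidases had 9 of 47 (19.1%), UDP-glycosyltransferases 9 of 64 (14.1%) and UMAMIT transporters 6 of 44 (13.6%). ABC transporters, with a median gene length of 4610 bp, had 10 of 127 (7.87%, 3.84 to 14), against 21.1% in the quartile of genes over 3030 bp. With the wider rule their share was 16.5%. ABCB29 led at a fold of 10.1, with 120 against 11.0. Cytochromes P450 had 23 of 248 (9.27%, 5.97 to 13.6), led by CYP707A1, which breaks down abscisic acid, at 9.92, and BAS1, which inactivates brassinosteroids, at 7.08. Glutathione transferases had 2 of 49 (4.08%). Serine carboxypeptidase-like proteins, with a median length of 3113 bp, had 1 of 51 (1.96%, 0.0496 to 10.4), SCPL49 at 4.36, and 9.80% with the wider rule. Among cysteine-rich receptor-like kinases, with a median of 2932 bp, it was 0 of 42, which allows a share of up to 7.14%. Cyclins of the A, B and D classes had 0 of 30, which allows up to 10.0%. With the wider rule these groups had 2.38% and 3.33%.

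Groups that a dark-grown seedling uses little or not at all had 3 of 134 genes with a summit, or 2.24% (0.464 to 6.40). They were SUP, a floral regulator, with its summit 2292 bp outside the gene, and the defensin-like LCR60 and LCR31, at 449 and 409 bp outside, so none of the summits lay within 200 bp of its gene. Seed storage proteins and oleosins had 0 of 13 and the pollen-coat-like SCRL peptides 0 of 27, which allow up to 23.1% and 11.1%. The first of these depended on the nearest-end rule: with the wider rule seed storage proteins and oleosins had 23.1%, near the 23.4% of genes with a symbol, while SCRL peptides stayed at 0, LCR peptides had 4.76% and the flower identity group had 0. LCR and SCRL genes, 84 and 27 of the 134, are short, with medians of 602.5 and 582 bp. Genes of up to 1323 bp carried a summit in 6.77%. Light-harvesting proteins, of which a dark-grown seedling also has little, were counted under metabolism and transport. They had 2 of 21 (9.52%, 1.17 to 30.4), and 14.3% with the wider rule. SAUR genes, small auxin-induced genes with a median of 813 bp, had 4 of 79 (5.06%, 1.40 to 12.5). The part of gene length in these low shares, and in the higher shares of groups of long genes, was not tested.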

How the data were processed

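ChIP and input libraries of ENAP1 in air were analysed through the authors' joint peak list. BWA and MACS2 2.1.0.20150603 are the tools, and TAIR10 the build, per the submitters' processing notes. Region starts, ends and summits are positions in bp in the deposited list. The deposited fold enrichment is the caller's ratio of pile-up to local background with 1 added to both, and the deposited −log10 p and −log10 q are the caller's values per region. The deposited score was not used. Total reads per library were not used here, so depth per library is unknown.

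Pile-up and background were solved from fold and −log10 p under a Poisson tail. The largest misfit was 0.000196, and all 493 simulated regions were recovered. These were made with the same formula, so they check the solving step only. They had lower backgrounds than the 206 regions at 5 or more times the lowest background and do not cover those. In the ethylene list the values did not solve this way, so only its positions were used, with an overlap of at least 1 bp. Gene names and ends came from the RefSeq table of TAIR10.1, without strand or sequence, so no gene coordinates or sequences are printed, and the planned count of promoter motifs was not made. As a check that the builds share positions, summits were shifted by 10000 bp, which left 10.0% to 10.2% of them 0 to 200 bp inside a gene end. Families were formed from symbols and synonyms, so members known by other names or by number only can be missing.

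Genes named are the nearest genes of the 20 highest, 5 lowest and 5 widest regions, the 5 genes with most summits, up to 4 leading carriers of a group, and all carriers in ethylene signalling and histone acetylation. JAZ12 and the neighbours of a summit were named beside them. Members and lists were chosen with earlier results of these data known. Shares carry exact (Clopper-Pearson) 95% intervals. Limits for a count of 0 use 3 counts. Alternatives changed the distance limit, the assignment window, the regions used and the position. Python 3.11.15, pandas 2.3.3 and SciPy 1.17.1 were used.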

Additional observations from a re-analysis of the deposited data

How the results depend on the processing

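The 4204 genes with a summit became 2214 with the regions at or above the median −log10 q and 2575 with the regions that overlap an ethylene region, since both use fewer regions. The share of summits 0 to 500 bp inside an end, 65.2%, was 69.9% in those regions of higher −log10 q, and the share of air regions in the ethylene list, 58.7%, was 57.2% when at least 50% of the region had to overlap. Of 438 ratios of a group's share to that of genes with a symbol, recomputed under 6 alternatives, 419 stayed inside the interval of the reported ratio. Those intervals are wide, and of the 73 ratios 19 moved by more than 1.5 times, and 10 to the other side of 1, with the window of 1000 bp outside to 500 bp inside. The counts were 8 and 6 with summits within 500 bp of an end, 33 and 9 with higher −log10 q, and 22 and 11 with ethylene overlap. They were 0 with the midpoint as position and without regions of high background. U-box ligases had a ratio of 1.94, which was 0.819 with the regions that overlap an ethylene region. Serine carboxypeptidase-like proteins had 0.11, which was 0 with those regions and with the regions of higher −log10 q, and 0.419 with the window. The cause of these moves was not tested. For the SNARE group the ratio lay between 2.08 and 2.54 over the 6 alternatives. Joint calling and unknown depth limit every value: absence from the list does not show that a gene is unbound. No paired analysis was possible because the list holds no value per library, and leaving out a library and assignment to starts of transcription were not run for want of such values and of strand.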
